A study of Mus musculus with 6 samples.

Results

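Schwann cell precursors are glial cells that leave the neural crest along growing nerves. The 8 genes described here were taken by symbol as genes of glial derivatives of the crest: Fabp7, Erbb3, Mbp, Gfra3, Dhh, Pou3f1, S100b and Ngfr. All 8 are among the 21006 symbols of the deposited count table, and 7 passed the filter on low counts, which S100b did not. The choice used no measured value of these libraries, but earlier results of the series were known when it was made.

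The study measured polyadenylated RNA in neural crest cells of mouse branchial arches, the embryonic swellings that form the jaws and throat, at E11.5. The 3 DKO (double knockout) libraries were Ehmt1f/f and Ehmt2f/f, floxed for both H3K9 methyltransferase genes, and the 3 control libraries were Ehmt1+/+ and Ehmt2+/+. All 6 carried Rosa26 TdTomato/+, the red reporter on which the cells were sorted, together with Wnt1-cre. The replicates are labelled as biological, with no word on whether 1 embryo or a pool went into each, so the p-values measure the spread between these libraries. Wnt1-cre marks crest descendants of every fate, as well as the dorsal neural tube, so the sort did not select glia.

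In the embryo, axons display neuregulin, and the receptor ErbB3 with its partner ErbB2 lets the precursors survive and migrate on it. The transcription factor Sox10 is needed for all crest glia and switches on Erbb3 and later the myelin genes. Precursors mature into immature and then myelinating Schwann cells after the stage sampled here, and some give rise to melanocytes and parasympathetic neurons. Several of the 8 genes also have other sources. Fabp7 is made by radial glia, Pou3f1 by the neural tube, Gfra3 by sensory and sympathetic neurons, and Ngfr by early crest, neurons and mesenchyme.

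Library totals ran from 23414466 to 44538260 counts. Ehmt2 stood at 119 to 140.4 CPM (counts divided by the TMM-scaled library size, the usual CPM unit) in DKO and 347 to 359.7 CPM in control libraries, and Ehmt1 at 133 to 168 and 250.03 to 268 CPM, so both targeted genes went with the labels, although counts per gene also take in exons that a deletion leaves. Sox10 was present in every library, at 63.1 to 91.9 CPM, as was Foxd3, a transcription factor gene of early crest and precursors, at 25.0 to 37.7 CPM. The ectomesenchyme gene Prrx1 (396 to 583 CPM) and the neuron gene Tubb3 (426 to 548 CPM) were higher in every library than both of these genes on the same scale, which does not correct for length. The labelled tissue thus had its mesenchymal markers, with glial and neuronal transcripts beside them.

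The promoters of 3 members are printed because they belong to the most abundant member (Fabp7), the next (Ngfr) and the nearly silent one (S100b), and because Ehmt1 and Ehmt2 act on chromatin. Each is the 250 bases before the RefSeq start on GRCm38.p6, read on the gene's own strand, with CG dinucleotides in capitals.
Fabp7, chr10:57784673-57784922, plus strand: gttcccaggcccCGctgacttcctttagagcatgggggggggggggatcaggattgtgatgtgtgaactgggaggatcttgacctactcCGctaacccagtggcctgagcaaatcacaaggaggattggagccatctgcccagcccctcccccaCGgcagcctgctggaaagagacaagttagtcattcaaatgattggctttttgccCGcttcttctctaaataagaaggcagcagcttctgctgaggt
Ngfr, chr11:95587699-95587948, minus strand: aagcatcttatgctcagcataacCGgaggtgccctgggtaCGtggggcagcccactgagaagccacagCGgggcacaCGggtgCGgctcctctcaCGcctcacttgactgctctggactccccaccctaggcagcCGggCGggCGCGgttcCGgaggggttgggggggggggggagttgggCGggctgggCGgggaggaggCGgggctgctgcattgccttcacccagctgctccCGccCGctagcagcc
S100b, chr10:76253586-76253835, plus strand: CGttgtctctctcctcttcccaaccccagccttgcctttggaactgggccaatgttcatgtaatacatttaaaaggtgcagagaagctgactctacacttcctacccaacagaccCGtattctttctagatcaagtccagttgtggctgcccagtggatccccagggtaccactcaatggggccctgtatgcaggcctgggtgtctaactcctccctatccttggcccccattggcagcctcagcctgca
These windows held 4, 16 and 2 CG dinucleotides, against a median of 6 over 32851 promoter windows of the same length. More CG dinucleotides than in Fabp7 were found in 55.6% of those windows, more than in Ngfr in 23.5% and more than in S100b in 71.0%. The Dhh window held 9, and the table gave a promoter for 4 of the 8 members. The letters ACAAAG and ACAATG, forms of the core that Sox proteins bind, were searched on both strands, and neither was in the 4 windows; they occur in 16.5% and 10.7% of all windows. Among these 4 genes Fabp7, the most abundant, held fewer CG dinucleotides than Dhh, which was near 1 CPM. Ngfr, the next most abundant, held the most, and S100b, the nearly silent one, the fewest. A relation of CG content to level was not tested.

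No member passed the test between DKO and control. Of the 7 tested members 0 were called by edgeR's quasi-likelihood test at an adjusted p below 0.05, against 3.01% of all 14555 tested genes (2.19% called higher and 0.818% called lower in DKO, a lean to higher calls that was gone without both libraries numbered 3, with 361 higher and 359 lower). At an unadjusted p below 0.05 there was 1, Erbb3, where 20.9% of all tested genes passed. The DESeq2 Wald test called 1, again Erbb3, against 1106 of all 14555 tested genes. For limma-voom it was 0 members, against 411 of all tested genes. The median log2 fold change (DKO over control) was -0.05 over the 7 members and -0.01 over all tested genes, with 3 members positive and 4 negative. In bulk RNA, fewer cells of a type and less RNA per cell cannot be told apart, and this holds for every value below.

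**Figure D1:**
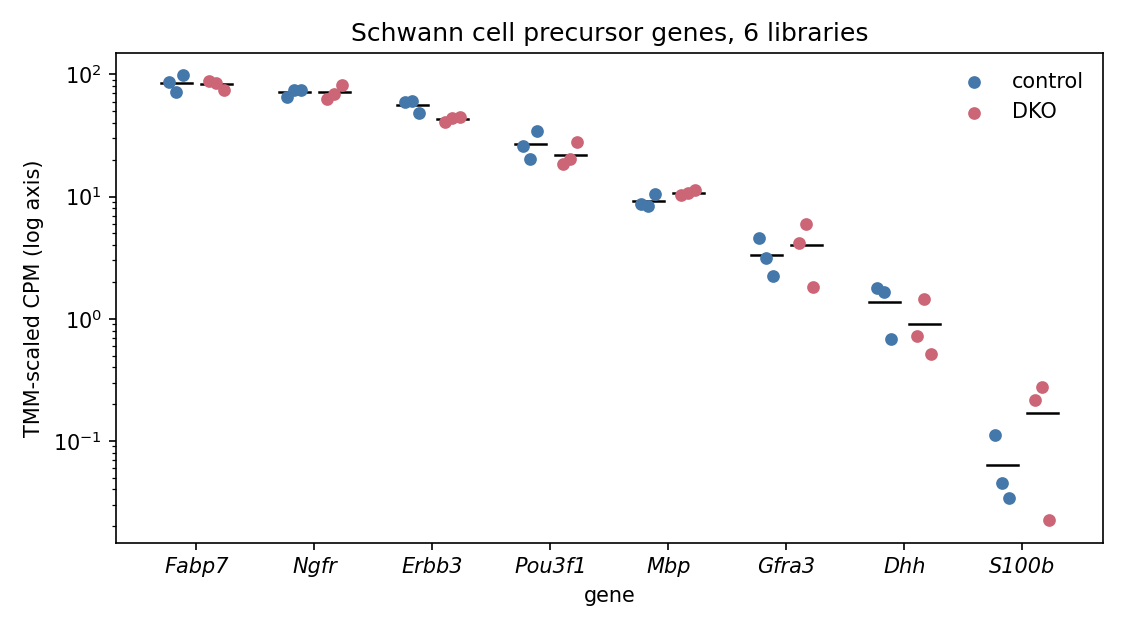
TMM-scaled CPM of the 8 genes on a log axis, with 1 point for each of the 3 control (blue) and 3 DKO (red) libraries and a black bar at each group mean. Erbb3 is the 1 tested gene whose groups do not overlap, with DKO points from 40.6 to 44.6 CPM and control points from 48.7 to 60.7 CPM.

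Among the receptors, Erbb3 (chromosome 10, 128567523 to 128589652, minus strand, 28 exon blocks), the neuregulin receptor of the precursors, had the smallest p. It measured 40.6, 43.8 and 44.6 CPM in DKO libraries 1 to 3 and 59.5, 60.7 and 48.7 CPM in controls 1 to 3. Every DKO library lay below every control library, and control replicate 3 lay nearest to DKO. Such separation of the groups was seen for 1 of the 7 tested members and for 27.2% of all tested genes. The DKO mean was 43.0 ± 2.16 CPM and the control mean 56.3 ± 6.56 CPM (± is the SD, n = 3 here and below), for a log2 fold change of -0.39 with an SE of 0.10 and an edgeR adjusted p = 0.0797, so the gene was not called. The 95% interval ran from 0.653 to 0.895 of the control level. The call turned on the setting: Erbb3 was called by DESeq2 (adjusted p = 0.018), without control replicate 3 (log2 fold change -0.48, edgeR adjusted p = 0.0491), and without both libraries numbered 3 (-0.51, edgeR adjusted p = 0.0291), an alternative chosen after the data were seen.

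Ngfr, which encodes the neurotrophin receptor p75 and is used to identify crest and immature glia (chromosome 11, 95568818 to 95587735, minus strand), had the same mean in both groups to 3 digits. By library, DKO 1 to 3 held 63.5, 69.0 and 81.9 CPM and control libraries 1 to 3 held 65.6, 74.0 and 74.9 CPM. Replicate 3 of each group was the highest of its group, and the groups overlapped over most of their range. The DKO mean was 71.5 ± 9.46 CPM and the control mean 71.5 ± 5.09 CPM, for a log2 fold change of 0.00092 with an SE of 0.11 and an edgeR adjusted p = 0.997. The 95% interval, 0.846 to 1.18 of the control level, left out a rise or fall of the size of 1.5-fold.

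Gfra3, the co-receptor that binds artemin and signals with Ret (chromosome 18, 34689898 to 34720387, minus strand), was low and varied within each group. In DKO libraries 1 to 3 it stood at 4.15, 5.98 and 1.81 CPM, and in control libraries 1 to 3 at 4.61, 3.14 and 2.22 CPM. The lowest library of each group was replicate 3, and DKO held both the highest and the lowest value. The log2 fold change was 0.25 with an SE of 0.44 and an edgeR adjusted p = 0.796, with a 95% interval from 0.582 to 2.43 of the control level. Without DKO replicate 2 its sign turned (-0.17). A 2-fold rise therefore lay inside the interval for Gfra3, and the highest library exceeded the lowest by 3.31 times.

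Dhh, the one secreted ligand of the 8, is made by Schwann cells and instructs the connective tissue sheath of the nerve (chromosome 15, 98891152 to 98898540, minus strand). DKO libraries 1 to 3 held 0.728, 1.46 and 0.514 CPM and control libraries 1 to 3 held 1.79, 1.66 and 0.684 CPM, on 251 counts in all. The groups overlapped, since DKO replicates 1 and 2 lay above control replicate 3, and replicate 3 was the lowest of each group. The log2 fold change was -0.61 with an SE of 0.48 and an edgeR adjusted p = 0.498, and the 95% interval ran from 0.305 to 1.4 of the control level. With 1 library left out the value lay between -1.16 (without DKO replicate 2) and -0.33 (without DKO replicate 3), and it was not called in any of these 6 fits. The GENCODE exons of Dhh share 546 bases with Rhebl1 on the same strand and 1107 bases with an antisense gene, and the counting of shared reads is not given, so the Dhh counts are uncertain. Rhebl1 itself stood at 8.91 ± 0.533 CPM (DKO) and 7.19 ± 0.488 CPM (control), above Dhh in every library.

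The transcription factor gene Pou3f1, known as Oct6 or SCIP, has a single exon (chromosome 4, 124656807 to 124660655, plus strand) and drives promyelinating Schwann cells towards myelination. By library, DKO 1 to 3 held 18.4, 20.2 and 27.8 CPM and control libraries 1 to 3 held 25.8, 20.2 and 34.8 CPM. In both groups replicate 3 was highest, and the middle DKO library was level with the lowest control library. The log2 fold change was -0.29 with an SE of 0.22 and an edgeR adjusted p = 0.503, with a 95% interval from 0.571 to 1.18 of the control level. An antisense gene shares 330 bases with its exon, which adds uncertainty where strand was not used in counting.

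Fabp7, the brain fatty acid binding protein gene and an early glial marker (chromosome 10, 57784881 to 57788450, plus strand), was the most abundant member. In DKO libraries 1 to 3 it stood at 88.6, 85.7 and 74.2 CPM, and in control libraries 1 to 3 at 86.1, 71.9 and 98.6 CPM. Control libraries held both the highest and the lowest value, so all DKO values fell within the control range. The DKO mean was 82.8 ± 7.58 CPM and the control mean 85.5 ± 13.3 CPM, for a log2 fold change of -0.05 with an SE of 0.12 and an edgeR adjusted p = 0.865 (95% interval 0.798 to 1.17 of the control level). The sign turned with library-size scaling (0.03) and without either group's replicate 3.

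Mbp, which encodes a main protein of compact myelin (chromosome 18, 82475146 to 82585637, plus strand), was detected in every library although myelin forms later. DKO libraries 1 to 3 held 10.3, 10.6 and 11.3 CPM and control libraries 1 to 3 held 8.68, 8.34 and 10.5 CPM. DKO replicates 2 and 3 lay above all controls and DKO replicate 1 just below the highest control. The log2 fold change was 0.23 with an SE of 0.14 and an edgeR adjusted p = 0.367, with a 95% interval from 0.944 to 1.45 of the control level. The locus also makes golli transcripts, which are not myelin transcripts and have a wider tissue range, and counts per gene do not separate the pair of transcript families.

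S100b, which encodes a calcium-binding protein of maturing glia (chromosome 10, 76253853 to 76261159, plus strand), was close to silent. It had 8, 12 and 1 counts in DKO libraries 1 to 3 and 5, 1 and 1 counts in controls 1 to 3, 28 in all. The 2 highest libraries were DKO replicates 1 and 2, but DKO replicate 3 had as few counts as the lowest controls. These counts did not pass the filter. In a fit with no filter S100b had a log2 fold change of 1.21 with an SE of 0.87 and was not called (edgeR adjusted p = 0.484). The gene Dip2a lies across S100b on the other strand, with 0 shared exon bases.

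Per kilobase of exon, which allows levels to be set side by side between genes, the members spanned a wide range. Fabp7 led with 68.4 ± 10.7 CPM per kb in control libraries, followed by Ngfr with 20.7 ± 1.48, while Sox10 stood at 25.6 ± 4.74. Erbb3 (9.36 ± 1.09) came next and then Pou3f1, and their ranges over the 6 libraries overlapped, at 6.74 to 10.1 and 4.77 to 9.03 CPM per kb. Gfra3 (1.66 ± 0.603) and Mbp (1.08 ± 0.137) also overlapped each other, as did Dhh (0.313 ± 0.137) and S100b (0.0429 ± 0.0284). The order of levels was the same in DKO libraries, from Fabp7 at 66.3 ± 6.07 to S100b at 0.115 ± 0.0888 CPM per kb. Lengths are the summed exons of all GENCODE transcripts of a gene, so the level of a gene with long rare transcripts, such as Mbp with 8469 bases, is understated against Fabp7 with 1250.

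**Figure D2:**
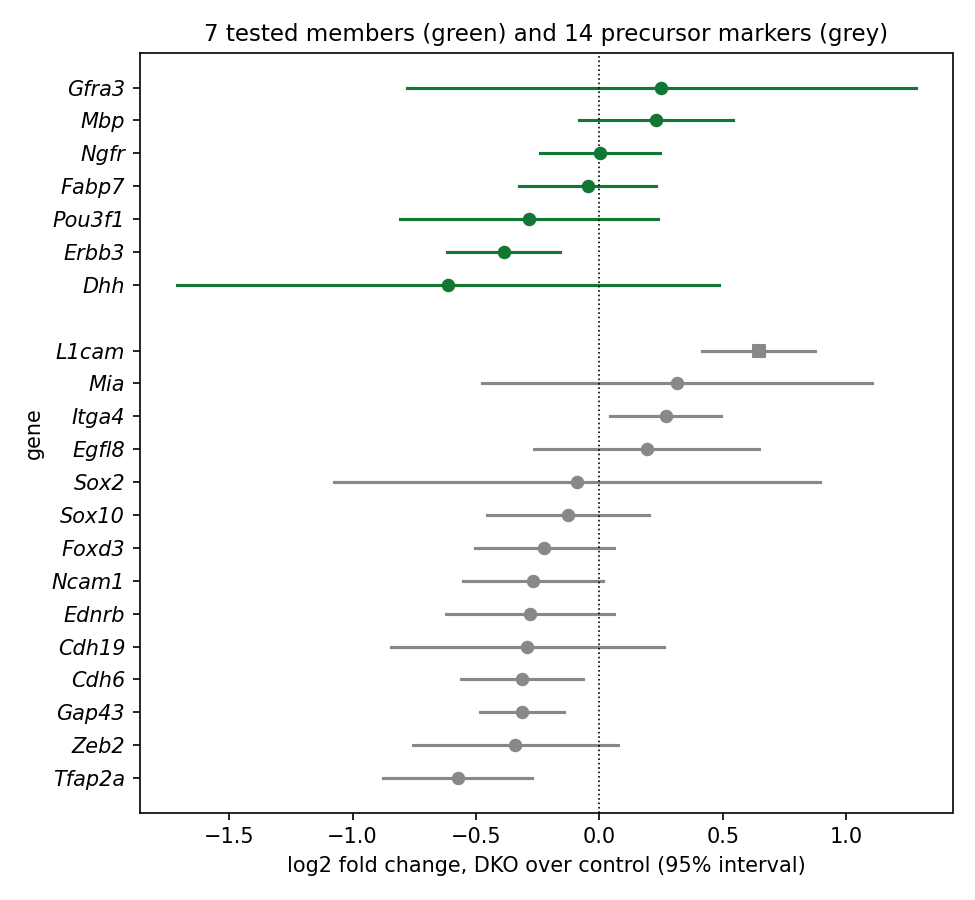
Log2 fold change, DKO over control, with its 95% interval for the 7 tested members (green) and the 14 genes of the precursor marker list (grey), where a square marks a gene called at an adjusted p below 0.05. L1cam, at 0.64, is the 1 square, and among the members the interval of Erbb3 is the 1 that leaves out 0.

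Set against Sox10 within each library, which removes the library scaling, no member separated DKO from control. Erbb3 counts were 58.6%, 67.9% and 55.4% of Sox10 counts in DKO libraries 1 to 3 and 74.9%, 66.0% and 77.3% in controls 1 to 3. The groups overlapped through DKO replicate 2 and control replicate 2. The difference of the mean log2 ratios was -0.26 (exact 2-sided permutation p = 0.2, adjusted p = 0.8 over the 8 members, where 3 against 3 cannot go below 0.1). Mbp counts were 14.9%, 16.5% and 14.0% of Sox10 in DKO and 10.9%, 9.08% and 16.6% in control libraries, so control replicate 3 was the highest of all. The 7 members other than Erbb3 had exact permutation p-values from 0.4 to 0.9 and adjusted p-values from 0.8 to 0.9. Sox10 itself had a log2 fold change of -0.13 with an SE of 0.14 and an edgeR adjusted p = 0.648.

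The members did not all rise and fall together from library to library. Over the 21 pairs of tested members, Pearson's r of log2 CPM across the 6 libraries had a median of 0.0049 and ran from -0.89 (Erbb3 with Mbp) to 0.71 (Gfra3 with Dhh), with 11 pairs positive. These points share group and library, so r is given as a description. Over 12865 other genes with a mean of at least 1 CPM, those most like each member by this r were Vhl and H2ac4 for Fabp7 (r = 0.986 and 0.976), Fnbp1l and Trex1 for Erbb3 (0.996 and 0.995), and Pmm2 and H2-D1 for Mbp (0.995 and 0.992). They were Tgfa and Tgfb3 for Gfra3 (0.997 each), Clcf1 and Epb41l4b for Dhh (0.995 and 0.993), Ddr1 and Mfsd6 for Pou3f1 (0.992 and 0.991), and Pcyox1l and Coq5 for Ngfr (0.981 and 0.968). None of these 14 genes is among the 8 members or the lists below, and each r is one of the 2 highest of 12865 over only 6 libraries. With the group means taken out, r over the 21 pairs of tested members had a median of -0.26, with 10 pairs positive. It then ran from -0.84 (Fabp7 with Erbb3) to 0.91 (Mbp with Pou3f1), and Gfra3 with Dhh stood at 0.87.

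Both libraries numbered 3 often lay at the same end of their groups. Replicate 3 was the highest library of both groups for 3 members (Mbp, Pou3f1 and Ngfr). It was the lowest of both groups for the other 3 that shared a direction (Gfra3, Dhh and S100b), 6 of 8 in all. Of all tested genes, 37.1% had replicate 3 highest in both groups or lowest in both. S100b was not tested and so lies outside that share, and its control replicates 2 and 3 held 1 count each. Fabp7 and Erbb3 went opposite ways in the DKO and control replicates 3. Genes of the neural tube, a tissue that Wnt1-cre also marks in its dorsal part, summed over 10 genes to 109, 59.1 and 229.7 CPM in DKO libraries 1 to 3 and 107, 61.4 and 177.6 CPM in controls 1 to 3. Both libraries numbered 3 were thus the highest and both numbered 2 the lowest, and 8 of the 10 genes were highest in both libraries numbered 3. The 13 ectomesenchyme genes went the other way, with 10 of them lowest in both libraries numbered 3. These 2 lists were picked after their values were seen; of the 14 precursor markers 1 was highest and 3 were lowest there. The part of these transcripts in the members' levels was not tested.

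**Figure D3:**
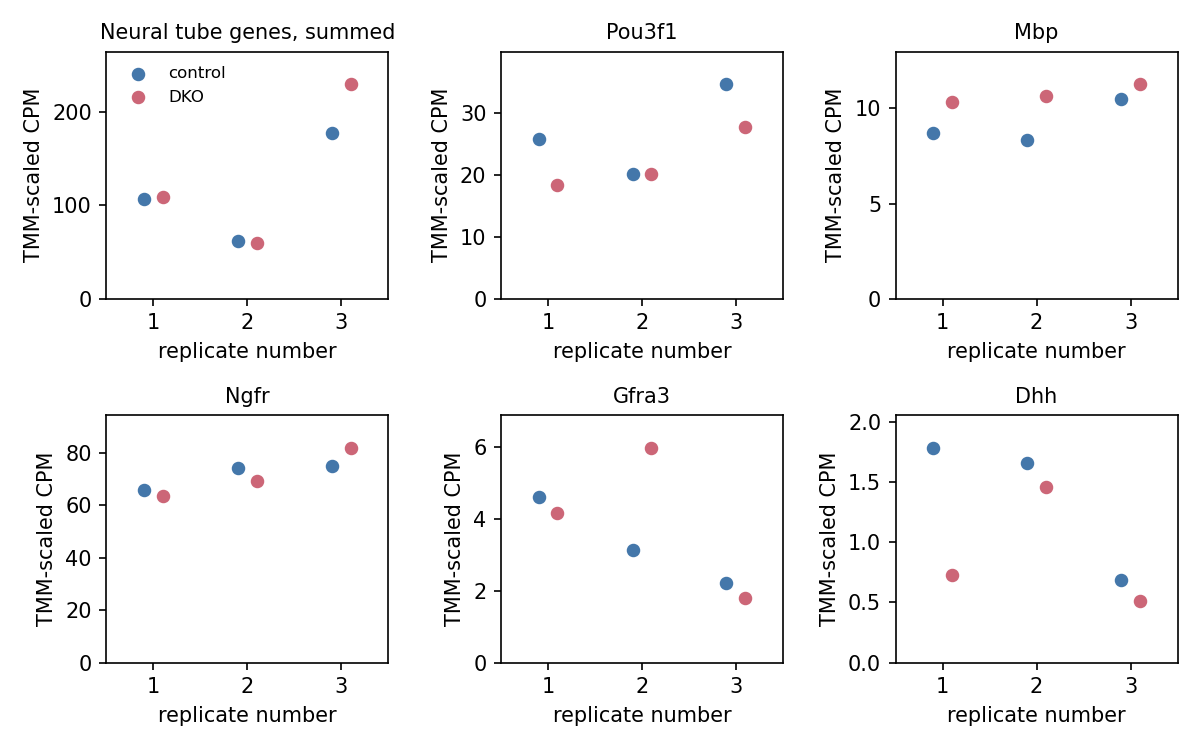
TMM-scaled CPM (axes from 0) by replicate number for the sum of 10 neural tube genes and for 5 members, with control libraries in blue and DKO libraries in red. The 2 libraries numbered 3 are the highest of their group for the neural tube sum (177.6 and 229.7 CPM), Pou3f1, Mbp and Ngfr and the lowest for Gfra3 and Dhh.

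Pathway partners of the members are given list by list. Of all 14555 tested genes, 3.01% were called by edgeR and 20.9% passed an unadjusted p below 0.05. DESeq2 and limma-voom called 1106 and 411 of them. Of 12 tested neuregulin and ErbB genes, 0 were called by edgeR, 1 passed an unadjusted p below 0.05, and DESeq2 and limma-voom called 1 and 0. Erbb2, the kinase partner of ErbB3, stood at 95.5 ± 16.3 CPM (DKO) and 102 ± 9.67 CPM (control), for a log2 fold change of -0.10. Erbin, an adaptor that binds ErbB2, measured 241, 259 and 259.5 CPM in DKO and 316, 311 and 303 CPM in control libraries, a log2 fold change of -0.29 without overlap (edgeR adjusted p = 0.0599). It was called by DESeq2 (adjusted p = 0.000964) and without DKO replicate 3 (edgeR adjusted p = 0.0486). The list's median log2 fold change was -0.03.

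In the GDNF family, 1 of 7 tested genes fell and 0 rose, with a median of -0.18. Where 3.01% of all tested genes were called, 1 call in a list of this size does not set the list apart. The gene that fell was Nrtn, which encodes neurturin, the ligand of parasympathetic neurons. By library, DKO 1 to 3 held 0.431, 0.48 and 0.358 CPM and control libraries 1 to 3 held 1.63, 1.39 and 0.991 CPM, so all DKO libraries lay below all controls. The log2 fold change was -1.66 with an SE of 0.30 and an edgeR adjusted p = 0.0277. Its call ended without DKO replicate 1 (adjusted p = 0.123), DKO replicate 2 (0.0638), control replicate 1 (0.0996) or control replicate 2 (0.105), with the value between -1.77 and -1.47 in these 4 fits.

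Of 13 tested neurotrophin genes 0 were called by edgeR, DESeq2 or limma-voom, with a median of -0.09. At an unadjusted p below 0.05, 3 passed, all lower, where 20.9% of all tested genes passed in either direction. The adaptors Maged1 and Bex3, which bind the p75 receptor, had log2 fold changes of -0.12 and -0.08. Of 15 Hedgehog genes 0 were called by edgeR, 3 passed an unadjusted p, and DESeq2 and limma-voom called 1 and 0, with a median of 0.02. The receptor and target gene Ptch1 had a log2 fold change of 0.06 and the mediator Gli3 one of -0.21, without overlap of the groups (edgeR adjusted p = 0.137, DESeq2 adjusted p = 0.0316).

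Among the 14 precursor markers 1 rose and 0 fell by edgeR, with 4 log2 fold changes positive, 10 negative and a median of -0.25. At an unadjusted p below 0.05, 2 were higher and 3 lower, where 20.9% of all tested genes passed. DESeq2 and limma-voom called 3 and 1 of the markers, against 1106 and 411 of all 14555 tested genes. The gene that rose was L1cam, which encodes an adhesion molecule that glia share with axons, with 94.2, 102 and 81.4 CPM in DKO and 63.6, 58.8 and 55.2 CPM in control libraries. All DKO libraries lay above all controls, for a log2 fold change of 0.64 with an SE of 0.10 and an edgeR adjusted p = 0.0148. Leaving out DKO replicate 1 (adjusted p = 0.0683), control replicate 2 (0.0706) or control replicate 3 (0.0676) ended its call. In the other direction, the transcription factor gene Tfap2a (-0.57, edgeR adjusted p = 0.0599) and the growth cone gene Gap43 (-0.31, edgeR adjusted p = 0.0654) had all DKO values below all control values and were not called. The integrin gene Itga4 had all DKO values above all control values and was not called (0.27, edgeR adjusted p = 0.175). The groups thus did not overlap for 4 of the 14 markers, against 27.2% of all tested genes. Of the 18 tested genes of myelin and later Schwann cells 0 were called by edgeR, 4 passed an unadjusted p, and DESeq2 and limma-voom called 2 and 0, with a median of -0.13. The most abundant of that list, the deacetylase gene Hdac2 and the transcription factor gene Yy1, had log2 fold changes of -0.23 and -0.04. The groups did not overlap for Hdac2 (edgeR adjusted p = 0.137, DESeq2 adjusted p = 0.0309). They did not overlap for 4 of the 18 tested genes, against 27.2% of all tested genes. Hdac1 was also lower in DKO (-0.26, edgeR adjusted p = 0.107). Gldn (1.38, edgeR adjusted p = 0.0806) and Mal (0.84, edgeR adjusted p = 0.210) were higher, at no more than 1.37 and 0.425 CPM in any library. The 4 genes of that list that did not pass the filter were Mag, Cldn19, Pllp and Gfap, genes of later myelin and glia, with at most 0.308 CPM (Mag) in any library.

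For other fates of the crest, 1 of 15 neuron genes fell and 0 rose by edgeR, with 14 log2 fold changes negative and a median of -0.34. Of all 14555 tested genes 7459 had a negative value. At an unadjusted p below 0.05 there were 5 neuron genes, all lower, where 20.9% of all tested genes passed in either direction. DESeq2 and limma-voom called 2 and 1 neuron genes, against 1106 and 411 of all tested genes. The gene that fell was Pou4f1, a sensory neuron transcription factor gene, with 43.3, 39.1 and 45.5 CPM in DKO and 55.8, 62.0 and 57.4 CPM in control libraries, which did not overlap (log2 fold change -0.45 with an SE of 0.09, edgeR adjusted p = 0.0306). Its call ended without DKO replicate 1 or 2 or any 1 control library, with adjusted p-values from 0.0784 to 0.137 (edgeR). Isl1, another sensory neuron transcription factor gene, did not overlap between groups either and was not called (-0.42, edgeR adjusted p = 0.0569). The groups did not overlap for 3 of the 15 neuron genes, against 27.2% of all tested genes. The number of neuron genes called ranged from 0 to 5 with 1 library left out. Of 6 tested melanocyte genes 1 rose and 0 fell, with 3 log2 fold changes positive, 3 negative and a median of -0.01; 2 were higher at an unadjusted p, and DESeq2 and limma-voom called 1 each. The gene that rose was the pigment enzyme gene Tyr, at 2.21, 3.20 and 2.28 CPM in DKO and 1.07, 0.808 and 0.444 CPM in control libraries (log2 fold change 1.70 with an SE of 0.34, edgeR adjusted p = 0.0392), a call that ended without DKO replicate 1 or 2 or any 1 control library (adjusted p from 0.063 to 0.138). Against a 1.5-fold change, none of the calls of Nrtn (adjusted p = 0.118), L1cam (1), Pou4f1 (1) and Tyr (0.165) held by edgeR, and that of Tyr also ended without both libraries numbered 3 (0.0544). The other gene that was higher at an unadjusted p was the transcription factor gene Mitf. It stood at 5.09, 7.20 and 6.48 CPM in DKO and 4.88, 4.49 and 3.62 CPM in control libraries. These groups did not overlap, and Mitf was not called (0.53, edgeR adjusted p = 0.181). Groups did not overlap for 2 of the 6 tested melanocyte genes, against 27.2% of all tested genes. The pigment genes Pmel (-0.48) and Dct (-0.36) and the receptor gene Kit (-0.10) had negative values and were not called. The melanocyte genes Tyrp1 and Mlana were near 0 in all libraries.

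Of cells that the sort or the tissue could also have held, 0 genes were called in 4 lists by edgeR. These were neural tube (10 tested, 0 at an unadjusted p, 0 by DESeq2 and by limma-voom), ectomesenchyme (13 tested, 3, 1 and 0), epithelium (9 tested, 1, 0 and 0), and endothelium and blood (7 tested, 2, 2 and 0). Their medians were 0.28, -0.17, -0.03 and 0.21. Of all 14555 tested genes, 20.9% passed an unadjusted p below 0.05, and DESeq2 and limma-voom called 1106 and 411. The most abundant genes of the 4 lists were Sox1 and Sox21 (log2 fold changes -0.03 and 0.42), Prrx1 and Pdgfra (-0.31 and -0.17), Krt18 and Epcam (-0.03 and -0.59), and Hba-a1 and Kdr (-0.20 and 0.25). Epcam was called lower without DKO replicate 3 (-0.86, edgeR adjusted p = 0.0479) and also without both libraries numbered 3. The value of Hba-a1 lay between -1.74 and 0.30 with 1 library left out. Within the last list the globin gene Hbb-bt (-1.95, edgeR adjusted p = 0.0684) and the endothelial gene Pecam1 (0.79, edgeR adjusted p = 0.111) lay in opposite directions, each without overlap of the groups and neither called. Among the ectomesenchyme genes, Msx2 (-0.46, edgeR adjusted p = 0.0841) and Dlx5 (-0.33, edgeR adjusted p = 0.170) were lower without overlap and not called. The groups did not overlap for 2 of 7 genes in the last list and 2 of 13 ectomesenchyme genes. The neural tube and epithelium lists had 0 such genes, against 27.2% of all tested genes. The epithelial genes summed to 18.9 to 32.5 CPM in DKO and 23.0 to 28.1 CPM in control libraries, and the endothelial and blood genes to 21.7 to 87.3 and 36.1 to 59.1 CPM.

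**Figure D4:**
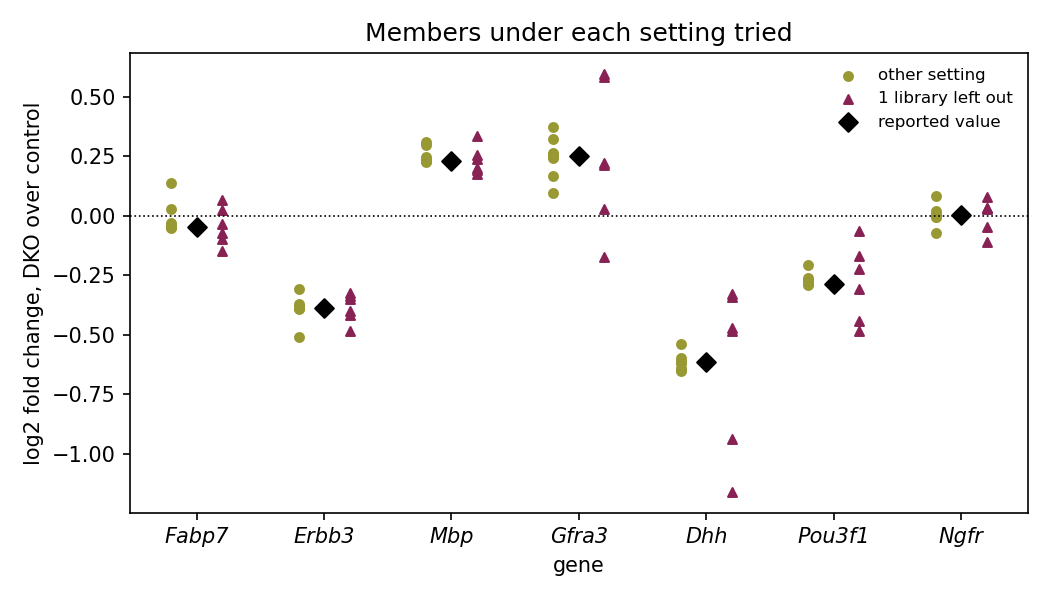
Log2 fold change, DKO over control, of the 7 tested members in the reported fit (black diamonds), with 1 library left out (purple triangles) and under the other settings tried (olive points). Erbb3, Dhh and Pou3f1 stay below 0 and Mbp above 0 in every fit shown, whereas Fabp7, Gfra3 and Ngfr fall on both sides.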

How the data were processed

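Polyadenylated RNA of 3 DKO and 3 control libraries was analysed from whole-number counts per gene symbol that the authors deposited without normalization. Build mm10 and the tools STAR 2.7.10a, Trim Galore and Picard are named, per the submitters' processing notes. How reads were counted, on which strand, with which annotation and with or without duplicates is not given in the sources used here. Per the labels' protocols, the kit was stranded.

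Counts were fitted with edgeR 4.0.16 in R 4.3.3 (filterByExpr by group at a count of 10 and a total of 15; TMM; robust quasi-likelihood F test, 2-sided, on group alone). Benjamini-Hochberg adjustment ran over the 14555 genes that passed, and calls were made below 0.05. Intervals are the log2 fold change plus and minus the t quantile times SE, where SE is the log2 fold change over the root of F. Log2 CPM for correlations used a prior count of 2. The fit was tested on simulated data with 200 changed genes. It recovered 83 of 100 2-fold and 97 of 100 4-fold changes. Of its 200 calls 10% were unchanged genes, a larger share than the threshold of 0.05 aims at.

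Members and lists were chosen with earlier results of these data known. All 8 members were named; of each other list, up to 4 called genes by adjusted p, or else its 2 most abundant; and the 2 genes most like each tested member. Tubb3, Foxd3, Rhebl1, Dip2a, Tyrp1, Mlana, Mag, Cldn19, Pllp, Gfap, Tfap2a, Gap43, Isl1, Pmel, Dct, Kit, Hbb-bt and Pecam1 were added after their values were seen. So were Mitf, Gldn, Mal, Hdac1, Itga4, Msx2 and Dlx5. The precursor marker list was shortened to 14 genes after its values were seen, because some planned items are not reported here. Alternatives were RLE, library size only, 2 other filters, DESeq2 1.42.0, limma-voom (limma 3.58.1), a 1.5-fold threshold, a replicate block, and leaving out libraries. Coordinates and exon lengths are from GENCODE M21 (GRCm38), and promoters from RefSeq GRCm38.p6.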

Additional observations from a re-analysis of the deposited data

How the results depend on the processing

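The 438 genes called in DKO against control became 1106 with the DESeq2 Wald test, 122 against a 1.5-fold change and 720 without both libraries numbered 3, an alternative chosen after seeing the data; with 1 library left out they ranged from 131 (without DKO replicate 1) to 1106 (without DKO replicate 3). The 0 called members became 1, Erbb3, with DESeq2, without control replicate 3 and without both libraries numbered 3, and ranged from 0 to 1 with 1 library left out. Library-size scaling moved the share of higher calls from 72.8% to 83.9% and the median of all genes from -0.01 to 0.07; the share was 56.4% with DESeq2, 54.0% without DKO replicate 3 and 50.1% without both libraries numbered 3. With the replicate block 619 genes, 0 members, 2 precursor markers, 1 ectomesenchyme gene and 1 endothelial or blood gene were called, with Erbb3 at an adjusted p of 0.0714 (edgeR). Same-numbered libraries deviated together at r = 0.05, -0.03 and 0.36 for numbers 1 to 3. DKO replicates 1 and 3 correlated best with the control library of their own number, and DKO replicate 2 with control replicate 1. The labels name no pairs, so the main fit did not take the numbers as pairs. Whether same-numbered libraries belong together cannot be told from the labels.

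Signs that turned, all of values not called, were as follows. With library-size scaling they were Fabp7 (0.0301), Bex3 (0.0030), Yy1 (0.0404), Sox1 (0.0434) and Krt18 (0.0544), with limma-voom Krt18 (0.0247), with no filter Ngfr (-0.0041), and with the replicate block Ngfr (-0.0056). Without both libraries numbered 3 they were Fabp7 (0.14), Ngfr (-0.0737) and Ptch1 (-0.0170). With 1 library left out the log2 fold change ranged from -0.15 to 0.0643 for Fabp7, -0.17 to 0.60 for Gfra3, -0.11 to 0.0783 for Ngfr, -0.26 to 0.0106 for Sox10, -0.21 to 0.0286 for Erbb2, -0.14 to 0.00955 for Bex3, -0.0204 to 0.113 for Ptch1, -0.0759 to 0.00073 for Yy1, -0.70 to 0.38 for Sox1, -0.21 to 1.12 for Sox21, -0.18 to 0.0941 for Krt18 and -1.74 to 0.30 for Hba-a1. The planned ratios to references other than Sox10 are not reported. With 1 library left out, ratios to Sox10 ranged from -0.17 to 0.33 for Fabp7, -0.17 to 0.86 for Gfra3 and -0.47 to 0.19 for Pou3f1. The cause of these turns was not tested. The call of Ehmt1 ended against a 1.5-fold change (edgeR adjusted p = 0.277). S100b, with 28 counts, is limited by depth.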
